A study of Mus musculus with 10 samples.

Results

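Genes of bile transport and bicarbonate secretion were followed, 10 of the 18193 genes that the arrays read by at least 1 single-gene probe set. They were chosen by name from the known machinery of biliary fluid and solute transport, with earlier results of these data known. Every single-gene probe set of each was taken, which gave 13 of 34945 probe sets. The members were the chloride channel Cftr, the anion exchanger Slc4a2, the sodium/hydrogen exchanger Slc9a3, the bile acid importer Slc10a2, the water channels Aqp1 and Aqp8, the carbonic anhydrase Car2, the exporters Abcb4 and Abcc3, and the sodium-dependent glucose importer Slc5a1. A probe set is a group of short oligonucleotides on the array that read a transcript together, and its brightness is given here in log2 units, so that a difference of 1 is a doubling.

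The tissue came from mouse embryos at 15 days post coitum (dpc). The 10 samples formed 5 groups of 2: Sox17+/- gallbladder of the outbred ICR stock, wild type cystic duct of ICR, wild type gallbladder of ICR, Sox17+/- gallbladder of the B6 strain and wild type gallbladder of B6. Sox17 is a transcription factor of the endoderm, and Sox17+/- embryos carry 1 altered copy of its gene. The labels do not describe the allele, and they name no animals or litters and do not say whether embryos were pooled, so p-values measure the spread between these samples only. Sox17+/- gallbladder was compared with wild type gallbladder within and over the strains, and wild type cystic duct, through which the gallbladder drains, with wild type gallbladder.

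The epithelium of the gallbladder and bile ducts changes the bile that hepatocytes secrete. In the adult, Cftr lets chloride leave across the apical membrane, Slc4a2 exchanges that chloride for bicarbonate, carbonic anhydrases such as Car2 supply the bicarbonate, and water follows through aquaporins, while Slc9a3, Slc10a2 and Slc5a1 return sodium, bile acids and glucose from the lumen. Several of these genes are also used by other cells. Hepatocytes use Abcb4 to export phosphatidylcholine into bile and also express Aqp8, erythroid cells are rich in Car2 and Aqp1, and endothelium and mesothelium express Aqp1.

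Sox17 transcript was lower in Sox17+/- than in wild type gallbladder. On the probe set of the type less prone to cross-hybridization its signal was 7.65 and 7.90 in ICR Sox17+/- gallbladder, 8.03 and 7.91 in B6 Sox17+/- gallbladder, 9.52 and 9.24 in ICR wild type gallbladder, and 9.29 and 9.04 in B6 wild type gallbladder. The log2 change over both strains was -1.40 (SE 0.11, limma adjusted p = 0.00862). Replicates correlated at r = 0.960 to 0.995 in the gallbladder groups and at r = 0.889 in the cystic duct pair, across 24461 probe sets, and 6259 of them were over 1 log2 unit apart in that pair. The gallbladder pair at 0.960 was ICR wild type, the reference for cystic duct and for genotype in ICR. In it 1108 probe sets were over 1 log2 unit apart, against 29 to 421 in the other gallbladder pairs. Deposited sample medians ran from 5.51 to 6.07, the highest in ICR wild type gallbladder replicate 1. The interquartile range of the deposited signals, a measure of their spread, was 2.75 in cystic duct replicate 2. In the other samples it was 3.46 to 3.84, and quantile normalization gave all samples a common distribution. Precision is limited by there being 2 arrays a group. The tissue labels were set against marker lists: Epcam, an epithelial adhesion protein, read 11.10 and 11.49 in cystic duct and 11.43 to 12.12 in the 8 gallbladders. Krt19, a keratin of duct epithelium, read 8.94 and 9.23 in cystic duct and 10.05 to 10.97 in the 8 gallbladders, and Krt18, another such keratin, 11.45 and 11.67 in cystic duct and 10.88 to 11.51 in the gallbladders. Krt8, their partner keratin, read 11.86 and 11.33 in cystic duct and 8.20 and 10.77 in ICR wild type gallbladder on its main probe set. Its 2 other probe sets, of the type more prone to cross-hybridization, did not share the low value. One read 11.28 and 10.61 in cystic duct and 10.65 and 10.27 in that gallbladder group. The other read 11.09 and 11.23 in cystic duct and 10.64 and 10.37 in that gallbladder group. Of the 12 biliary epithelium genes, 6 were above and 6 below 0 in cystic duct against ICR wild type gallbladder.

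Liver and blood genes were high in the cystic duct arrays. The mean of 22 hepatocyte genes was 12.48 and 11.76 in the cystic duct samples, against 8.98 and 8.57 in ICR wild type gallbladder, and 20 of the 22 were higher by the test below, with a median log2 change of 3.51. All 22 were above both wild type gallbladders in each cystic duct sample. Albumin, the main plasma protein, was bright everywhere: Alb read 14.82 and 14.82 in cystic duct and 13.75 and 12.78 in ICR wild type gallbladder, and no gene of the list was at the bottom of the scale in any sample, the lowest being Arg1, a urea cycle enzyme, at 4.93. The mean of 14 erythroid genes was 10.13 and 8.82 in cystic duct and 7.64 and 6.60 in ICR wild type gallbladder, with 8 of 13 tested genes higher and a median change of 2.96. The summed hepatocyte signal, on the log2 scale, was 17.15 to 17.62 in cystic duct and 14.76 to 15.17 in ICR wild type gallbladder, and the summed erythroid signal was 13.83 to 15.17 and 11.68 to 12.56 in the same groups. In bulk samples like these, fewer cells of a type and less RNA per cell cannot be told apart.

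Promoter windows from RefSeq (build GRCm38.p6, 250 bases before to 50 after the start) were found for 8 of the 10 members, 9 windows in all because Slc4a2 has 2; Car2 and Abcc3 are named only. The core AACAAT, which SOX factors bind, was searched on both strands because Sox17 is the altered gene. It was present in 1 of the 9 member windows, that of Slc10a2, and in 10.7% of 32851 windows of the same length. The HNF1 palindrome and the FXR inverted repeat, elements known from liver genes and searched on both strands as 1 strict consensus each, were in none of the 9 and in 0.00913% each of all windows. The 100 bases before the start are shown for the 2 aquaporins and Abcb4, which differed between tissues or strains in the results, and for Slc10a2, where capitals mark the AACAAT core, read as ATTGTT on the strand of the gene. Each is written 5′ to 3′ on the strand of the gene, Abcb4 at chr5:8893621-8893720 (+), Aqp1 at chr6:55336199-55336298 (+), Aqp8 at chr7:123462194-123462293 (+) and Slc10a2 at chr8:5105288-5105387 (-).
Abcb4: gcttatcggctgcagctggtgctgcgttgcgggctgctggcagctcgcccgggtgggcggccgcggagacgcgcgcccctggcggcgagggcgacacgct
Aqp1: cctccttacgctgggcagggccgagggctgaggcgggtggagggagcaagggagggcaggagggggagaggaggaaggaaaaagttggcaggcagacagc
Aqp8: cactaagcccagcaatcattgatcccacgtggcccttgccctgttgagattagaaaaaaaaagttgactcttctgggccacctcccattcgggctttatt
Slc10a2: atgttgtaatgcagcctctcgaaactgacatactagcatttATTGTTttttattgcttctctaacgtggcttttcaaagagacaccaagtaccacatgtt
The Abcb4 and Aqp1 stretches are 77% and 67% G or C, against 48% for Aqp8 and 37% for Slc10a2. A match is a description of the letters and no evidence of binding, and its absence in a window says nothing about the factor.

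**Figure D1:**
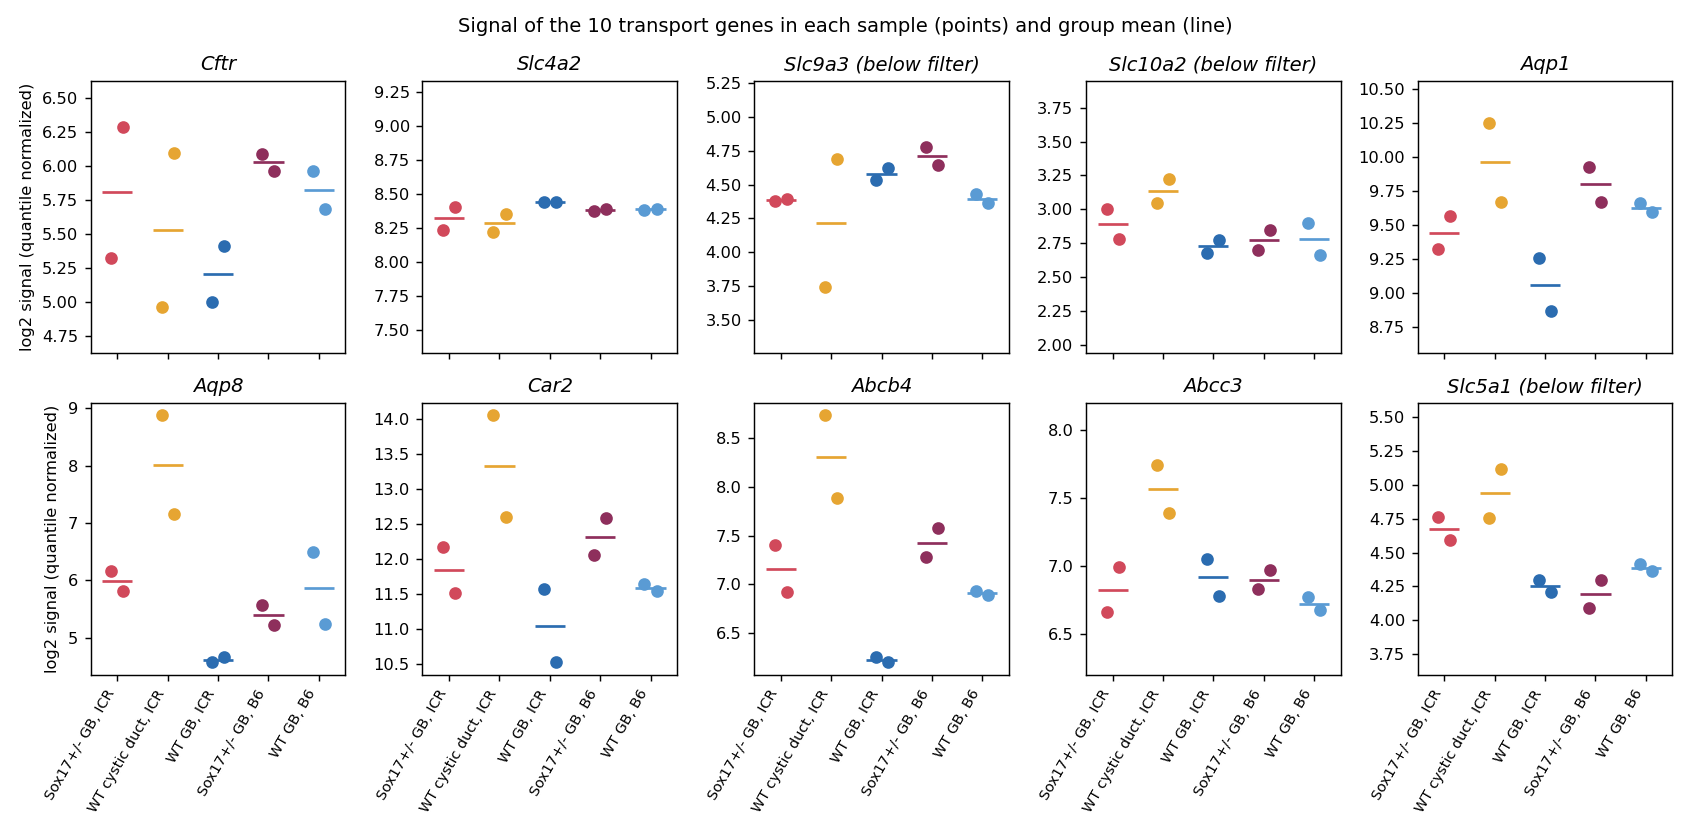
Quantile-normalized log2 signal of the main probe set of each of the 10 genes (y axis, a scale of its own in each panel) by group (x axis; GB, gallbladder; WT, wild type); points are samples and lines are group means. Aqp8, Car2, Abcb4 and Abcc3 were highest in both cystic duct samples, and Slc4a2 stayed between 8.22 and 8.44 in all samples. In the values as deposited, which are not drawn, Slc4a2 ran from 7.84 (cystic duct replicate 2) to 8.70 (ICR wild type gallbladder replicate 1).

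Of the 10 members, 7 had a probe set bright enough to be tested, that is, with a mean at or above the 30th percentile of all probe sets (4.81 log2 units), which was taken over all 10 samples and so can be reached through 1 bright group. Differences were tested with limma on all 24461 probe sets that passed, with p-values adjusted by Benjamini-Hochberg over all of them and a threshold of 0.05. The other 3 members, Slc9a3, Slc10a2 and Slc5a1, were dim on every probe set and are described last.

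In wild type ICR, Aqp8, Car2, Abcb4 and Aqp1 were higher in cystic duct than in gallbladder, at least 9.19-fold for Aqp8, whose gallbladder signal was dim, and 4.84-fold, 4.24-fold and 1.87-fold for the others in that order. Cftr, Slc4a2 and Abcc3 did not pass. Thus 4 of the 7 tested members were higher, where 4.03% of all probe sets tested were higher and 7.1% lower, and the median log2 change of the 7 was 0.90, beside -0.07 over all probe sets. Because the members were chosen with earlier results of these data known, these shares describe them and are no test of the set. After quantile normalization, both cystic duct samples lay above both gallbladder samples for 5 of the 7 and below for 1. Of all probe sets, 19.1% lay above and 28.9% below. In the values as deposited the groups overlapped for Aqp1 and Abcc3. Levels of the hepatocyte and erythroid lists were also higher in cystic duct. The smooth muscle list was lower, with a mean of 7.48 and 8.34 in cystic duct and 9.44 and 9.54 in ICR wild type gallbladder. Of its 10 genes, 6 were lower (median -1.80). The part of these lists in the differences was not tested.

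Aqp8 was the water channel that differed most. It read 8.88 and 7.15 in cystic duct and 4.57 and 4.67 in ICR wild type gallbladder, and of the 5 groups ICR wild type gallbladder alone lay below the brightness cut of 4.81. The bound of 9.19-fold sets the cystic duct mean against that cut, and the fitted values below use the signals as measured. The log2 change was 3.39 (SE 0.58, 95% interval 2.07 to 4.72, limma adjusted p = 0.0119). Its excess over the gallbladder mean was 4.25 in cystic duct replicate 1 and 2.53 in replicate 2, and the median excess of the hepatocyte genes in the same samples was 4.06 and 3.00. Without ICR wild type gallbladder replicate 1, Aqp8 did not pass (3.35, limma adjusted p = 0.0653).

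Aqp1, the constitutive water channel of many epithelia, read 10.25 and 9.67 in cystic duct and 9.25 and 8.87 in ICR wild type gallbladder. The change was 0.90 (SE 0.23, interval 0.38 to 1.43, limma adjusted p = 0.0429), close to the threshold. It did not pass when the values were used as deposited (0.54, limma adjusted p = 0.361) or centred on sample medians (0.65, adjusted p = 0.251), without the brightness filter (adjusted p = 0.0553), without the mean-variance trend (0.0587) or with the replicate block (0.0626), nor without any 1 of the 8 gallbladder samples (limma adjusted p = 0.0667 to 0.188).

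Car2, the cytosolic enzyme that makes bicarbonate from carbon dioxide, read 14.06 and 12.60 in cystic duct and 11.57 and 10.53 in ICR wild type gallbladder. The change was 2.28 (SE 0.50, interval 1.12 to 3.44, limma adjusted p = 0.0282), and the 2 cystic duct samples differed by 1.45 log2 units themselves. The mean of the erythroid list differed by 1.31 between them and that of the hepatocyte list by 0.72, both higher in replicate 1. Without ICR wild type gallbladder replicate 2, Car2 did not pass (1.75, limma adjusted p = 0.129), nor without any 1 of the 4 B6 samples (adjusted p = 0.0523 to 0.0603), nor with the values as deposited (1.96, adjusted p = 0.0531).

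Abcb4, the canalicular exporter of phosphatidylcholine, read 8.74 and 7.89 in cystic duct and 6.26 and 6.20 in ICR wild type gallbladder. The change was 2.08 (SE 0.30, interval 1.38 to 2.79, limma adjusted p = 0.00745). It passed without each of the 10 samples in turn, with an adjusted p of at most 0.0430. Abcc3, which exports conjugated bile acids and glucuronides across the basolateral membrane, read 7.74 and 7.39 in cystic duct and 7.06 and 6.78 in ICR wild type gallbladder, so the groups did not overlap. The change of 0.65 (SE 0.23, interval 0.13 to 1.17) did not pass (limma adjusted p = 0.104). In the values as deposited the Abcc3 groups overlapped, with 7.88 and 6.98 in cystic duct and 7.36 and 6.76 in ICR wild type gallbladder.

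The apical chloride channel and its partner exchanger did not pass. Cftr read 4.96 and 6.10 in cystic duct and 5.003 and 5.41 in ICR wild type gallbladder, so the groups overlapped, and the interval of its difference ran from -0.67 to 1.32 (0.33, SE 0.43, limma adjusted p = 0.636). Its second probe set was dim, at 2.59 to 3.08 in all 10 samples. Slc4a2 read 8.22 and 8.35 in cystic duct and 8.44 and 8.44 in ICR wild type gallbladder, with a difference of -0.15 (SE 0.15, interval -0.49 to 0.19, limma adjusted p = 0.515). The biliary epithelium list had a median change of 0.07 between the same groups, with 1 gene of 12 higher and 2 lower.

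All 4 calls depended on how the spread was estimated. From the 4 compared samples alone, 0 of the 24461 probe sets passed in limma, with 3110 at an unadjusted p under 0.05, and the adjusted p of the 4 genes was 0.200 to 0.341. With arrays weighted by their spread, again 0 passed, with 2839 at an unadjusted p under 0.05, and the adjusted p of the 4 was 0.172 to 0.423.

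**Figure D2:**
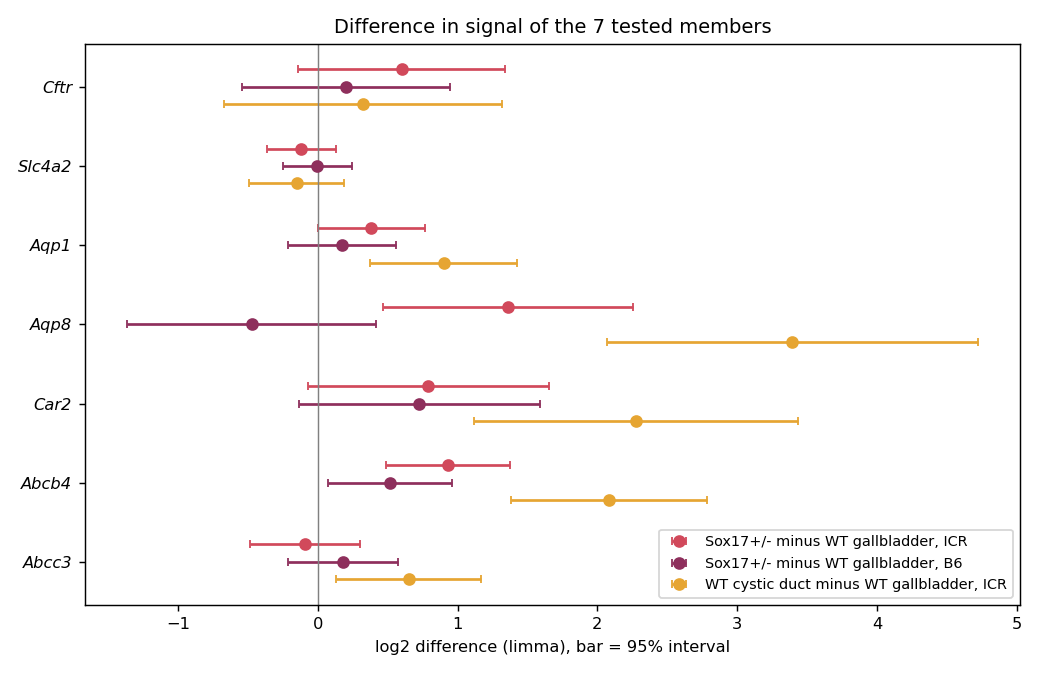
Log2 difference (x axis) of each of the 7 tested genes (y axis) for Sox17+/- minus wild type (WT) gallbladder in ICR and in B6 and for wild type cystic duct minus wild type gallbladder in ICR; points are limma estimates and bars their 95% intervals. The cystic duct interval lies above 0 for Aqp8, Car2, Abcb4, Aqp1 and Abcc3, of which the first 4 passed after adjustment.

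Among 60 other genes of biliary transport, likewise listed with earlier results of these data known, 55 were measured and 41 were bright enough to test. Of these, 6 were higher and 1 lower in cystic duct, where 4.03% of all probe sets were higher and 7.1% lower. Slc10a1, the hepatocyte importer of bile acids, read 8.65 and 7.33 in cystic duct and 4.81 and 4.67 in ICR wild type gallbladder (3.25, SE 0.51, limma adjusted p = 0.00892). Abcb11, the canalicular bile salt export pump, read 8.47 and 7.56 in cystic duct and 6.28 and 5.63 in gallbladder (2.06, SE 0.34, adjusted p = 0.0103). These are transporters of hepatocytes, and the groups did not overlap for either. Slc4a1, the anion exchanger of red cells and a member of the erythroid list as well, read 13.41 and 12.20 in cystic duct and 10.30 and 8.92 in gallbladder (3.20, SE 0.56, limma adjusted p = 0.0132). The calcium-activated potassium channel Kcnn4 (2.30, adjusted p = 0.0105), the membrane carbonic anhydrase Car14 (1.82, adjusted p = 0.00563) and the glucose carrier Slc2a1 (1.44, adjusted p = 0.0494) were also higher by limma. Cckar, the receptor through which cholecystokinin contracts the gallbladder, read 5.04 and 6.81 in cystic duct and 8.40 and 8.52 in gallbladder and was lower (-2.53, SE 0.53, limma adjusted p = 0.0234). The median change of the 41 was 0.26.

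**Figure D3:**
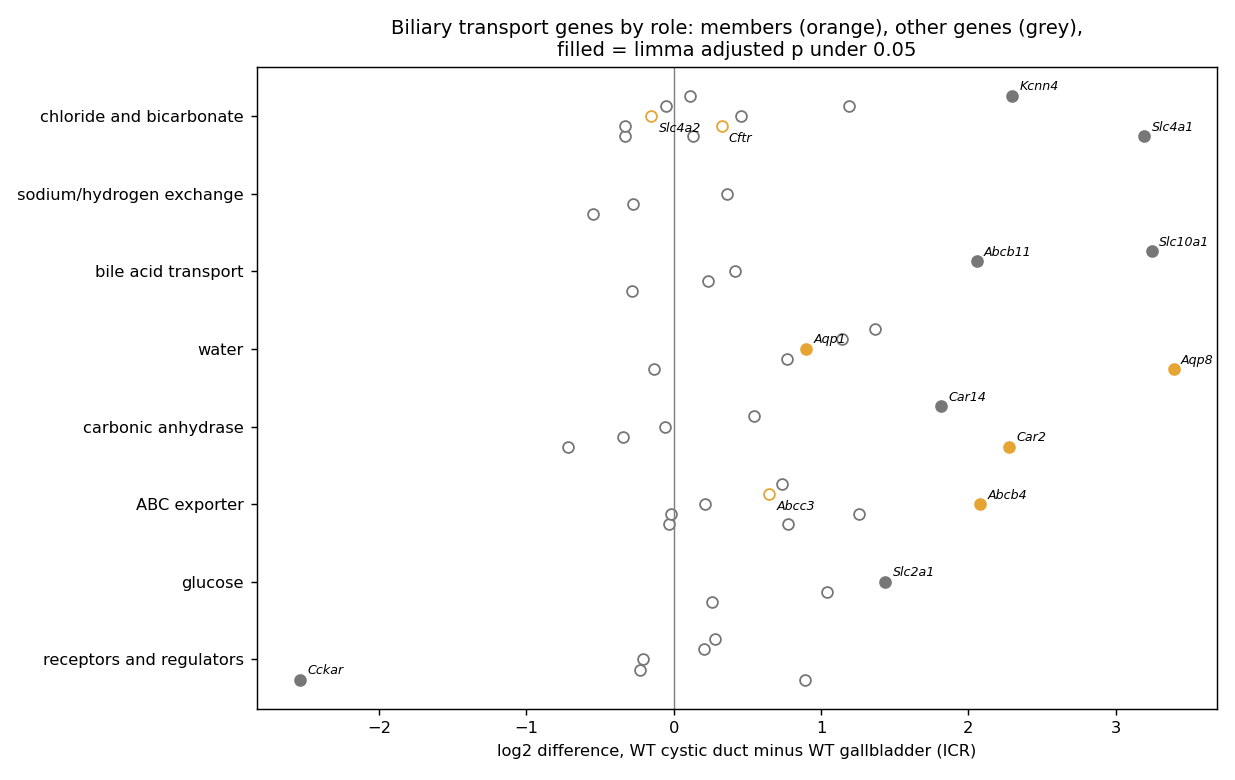
Log2 difference of wild type cystic duct minus wild type gallbladder in ICR (x axis) for the tested transport genes, arranged by role (y axis, points of a role spread vertically for legibility); orange points are the members, grey points the other genes, and filled points passed in limma. Filled points lie between 0.90 (Aqp1) and 3.39 (Aqp8) on the higher side, and Cckar at -2.53 is the filled point on the lower side.

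No member passed for genotype. Over both strains 6 of the 7 estimates were above 0, with a median log2 change of 0.40 beside -0.01 over all probe sets, and 0 of 7 passed in limma, where 0.135% of all probe sets did. At an unadjusted p under 0.05 limma listed 3 members, Abcb4, Car2 and Aqp1, and 9.9% of all probe sets. The count stayed at 0 in ICR alone and in B6 alone, where 0.0491% and 0.0123% of all probe sets passed and limma listed 2 members (Abcb4 and Aqp8) and 1 (Abcb4) at an unadjusted p under 0.05, with 12.4% and 4.95% of all probe sets, and in every alternative run. With the replicate number as a block, 13 probe sets passed over both strains, against 33 without it, and 0 members in either.

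Abcb4 had the smallest p among the members. It read 7.40 and 6.92 in ICR Sox17+/- gallbladder and 6.26 and 6.20 in ICR wild type gallbladder, a difference of 0.93 (SE 0.19, limma adjusted p = 0.187). In B6 it read 7.29 and 7.57 in Sox17+/- gallbladder and 6.94 and 6.90 in wild type gallbladder, a difference of 0.51 (SE 0.19, limma adjusted p = 0.946). Within each strain the Sox17+/- samples lay above the wild type samples. Over both strains the value was 0.72 (SE 0.13, 95% interval 0.41 to 1.04, limma adjusted p = 0.132).

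Car2 read 12.17 and 11.51 in ICR Sox17+/- gallbladder and 11.57 and 10.53 in ICR wild type gallbladder, groups that overlapped. In B6 it read 12.06 and 12.58 in Sox17+/- gallbladder and 11.64 and 11.55 in wild type gallbladder, and these groups were apart. The value over both strains was 0.76 (SE 0.26, interval 0.15 to 1.37, limma adjusted p = 0.415).

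Both water channels had positive estimates over both strains, and the estimates of Aqp8 had opposite signs in ICR and B6. Aqp8 read 6.15 and 5.81 in ICR Sox17+/- gallbladder and 4.57 and 4.67 in ICR wild type gallbladder (1.36, SE 0.38, limma adjusted p = 0.289). In B6 it read 5.58 and 5.22 in Sox17+/- gallbladder and 6.50 and 5.25 in wild type gallbladder (-0.47, SE 0.38, limma adjusted p = 1.00). Without B6 wild type replicate 3 the B6 value was 0.15. The difference between the strains, B6 minus ICR, was -1.83 (SE 0.53, interval -3.09 to -0.57) and did not pass (unadjusted p = 0.0109, limma adjusted p = 0.817).

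Aqp1 read 9.32 and 9.56 in ICR Sox17+/- gallbladder and 9.25 and 8.87 in ICR wild type gallbladder. In B6 it read 9.93 and 9.67 in Sox17+/- gallbladder and 9.66 and 9.59 in wild type gallbladder. The value over both strains was 0.28 (SE 0.12, interval 0.01 to 0.55, limma adjusted p = 0.495), and the groups did not overlap in either strain. In the values as deposited they overlapped in both. Sox17+/- gallbladder then read 9.36 and 9.58 against 9.49 and 8.92 in wild type for ICR, and 9.93 and 9.65 against 9.70 and 9.60 for B6.

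Cftr read 5.32 and 6.29 in ICR Sox17+/- gallbladder and 5.003 and 5.41 in ICR wild type gallbladder, and 6.09 and 5.97 in B6 Sox17+/- gallbladder and 5.97 and 5.68 in B6 wild type gallbladder. Its difference over both strains was 0.40 (SE 0.22, interval -0.12 to 0.93, limma adjusted p = 0.593), and it was 0.16 without ICR Sox17+/- replicate 2 and 0.64 without ICR Sox17+/- replicate 1. Slc4a2 read 8.24 and 8.41 in ICR Sox17+/- gallbladder and 8.44 and 8.44 in ICR wild type gallbladder, and 8.38 in both B6 Sox17+/- samples against 8.38 and 8.39 in B6 wild type gallbladder. Its interval over both strains, -0.24 to 0.11, was the narrowest of the 7 members (-0.06, SE 0.07, limma adjusted p = 0.817). Abcc3 read 6.66 and 6.99 in ICR Sox17+/- gallbladder and 7.06 and 6.78 in ICR wild type gallbladder, and 6.83 and 6.97 in B6 Sox17+/- gallbladder and 6.77 and 6.68 in B6 wild type gallbladder (0.04 over both strains, SE 0.12, limma adjusted p = 0.927).

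The Sox17+/- samples lay above the wild type samples for 3 tested members in ICR (Abcb4, Aqp1 and Aqp8) and below for 1 (Slc4a2), where 15.9% and 21.8% of all probe sets did. In B6 they lay above for 4 (Abcb4, Abcc3, Aqp1 and Car2), where 18.6% of all probe sets did. In the values as deposited the Aqp1 groups overlapped in both strains. Over both strains together no member was apart, where 4.36% of probe sets were. For the difference between strains, 0% of all probe sets passed and 5.79% had an unadjusted p under 0.05, Aqp8 being the 1 member among them.

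Hepatocyte and erythroid genes had positive estimates in the same comparison. The mean of the hepatocyte list was 10.43 and 9.75 in ICR Sox17+/- gallbladder and 8.98 and 8.57 in ICR wild type gallbladder, and 9.84 and 9.79 in B6 Sox17+/- gallbladder and 9.99 and 9.37 in B6 wild type gallbladder. Of the 22 hepatocyte genes 0 passed in limma, 22 were above 0 over both strains, and the median was 0.76, with 1.30 in ICR and 0.17 in B6. Of 13 erythroid genes 0 passed and 13 were above 0, with a median of 0.82. Of 7 tested skeletal muscle genes 0 passed and 7 were above 0, with a median of 1.11, and the mean of the 10 measured genes of that list was 8.02 in B6 Sox17+/- replicate 3 and 4.96 to 5.67 in the other 9 samples. The part of these lists in the members' values was not tested.

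Of the 41 other transport genes, 0 passed in limma for genotype over both strains, where 0.135% of all probe sets did. At an unadjusted p under 0.05 limma listed 12 of the 41 and 9.9% of all probe sets. Of the 41, 28 were above 0, with a median of 0.11. Kcnn4 (0.97, SE 0.12, limma adjusted p = 0.0527), Cckar (-1.49, SE 0.20, adjusted p = 0.0601) and the adenylyl cyclase Adcy8 (-1.70, SE 0.23, adjusted p = 0.0605) came nearest to the threshold. Cckar read 6.18 and 6.92 in ICR Sox17+/- gallbladder and 8.40 and 8.52 in ICR wild type gallbladder, and 7.40 in both B6 Sox17+/- samples against 8.77 and 8.14 in B6 wild type gallbladder. The basolateral chloride loader Slc12a2 stood at 0.53 (SE 0.16, limma adjusted p = 0.359).

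Between strains, Aqp1 was higher in B6 than in ICR gallbladder and the other members did not pass. All ICR samples have replicate number 1 or 2 and all B6 samples 3 or 4. A strain difference therefore cannot be told apart from one between these sets of arrays, and the replicate block, which works within a strain, does not separate them. Aqp1 read 9.59 to 9.93 in the 4 B6 gallbladders and 8.87 to 9.56 in the 4 ICR gallbladders, without overlap, as were 12.6% of all probe sets (0.46, SE 0.12, interval 0.19 to 0.73, limma adjusted p = 0.0383). Thus 1 of 7 members was higher, where 6.76% of all probe sets were higher and 8.9% lower, a share near the background. Abcb4 came next (0.48, SE 0.13, limma adjusted p = 0.0533), followed by Car2 (0.51, SE 0.26, adjusted p = 0.222) and Cftr (0.42, SE 0.22, adjusted p = 0.242). With the replicate number as a block, Abcb4 and Car2 passed and Aqp1 did not (limma adjusted p = 0.0507). Aqp1 also did not pass without any 1 of the 4 B6 samples or ICR Sox17+/- replicate 1 (limma adjusted p = 0.0660 to 0.137). In wild type samples alone 0 members passed. Among the other transport genes 5 were higher in B6 (Aqp3, Aqp9, Car4, Slc2a1 and Slc2a2, by 0.53 to 0.61 log2 units) and Car13 was lower (-0.60). The erythroid list had a median of 0.76 in the same comparison (1 of 13 genes higher), the biliary epithelium list 0.31 (3 of 12 higher) and the leukocyte list 0.40 (3 of 7 higher), and their part was not tested.

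Ordered by mean signal, cystic duct stood first for Aqp1, Aqp8, Car2, Abcb4, Abcc3, Slc10a2 and Slc5a1, and ICR wild type gallbladder stood last for Cftr, Slc10a2, Aqp1, Aqp8, Car2 and Abcb4. Slc10a2 and Slc5a1 lay below the brightness cut, and the share of all genes with cystic duct first or ICR wild type gallbladder last was not determined. Neighbours in that order often overlapped. For Abcb4, cystic duct (8.31 ± 0.60, SD, n = 2) lay apart from B6 Sox17+/- gallbladder (7.43 ± 0.20), which overlapped with ICR Sox17+/- gallbladder (7.16 ± 0.34), and that group with B6 wild type gallbladder (6.92 ± 0.03), while ICR wild type gallbladder (6.23 ± 0.04) lay apart at the low end. For Aqp8, cystic duct (8.02 ± 1.22) and ICR wild type gallbladder (4.62 ± 0.07) lay apart at the ends, and the 3 groups between them overlapped in sequence. For Cftr no pair of neighbours was apart.

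Members were also set beside 3 marker lists across the 8 gallbladder samples, leaving out the cystic duct. These relations were chosen after the group values were seen, and the 8 samples share strains and genotypes, with 4 per strain, too few for a value within a strain. Of 21 relations, 7 passed an exact permutation test after Benjamini-Hochberg adjustment. That test takes the 8 samples as exchangeable, although they form 4 groups and same-numbered samples deviated together, so its p-values carry the differences between groups and are no separate evidence of a relation. Car2 followed the erythroid list most closely (Pearson r = 0.971, exact permutation p = 0.000397, adjusted p = 0.00833; Spearman rho = 0.905, adjusted p = 0.0319). Leaving out the 2 samples farthest from the list's median gave r = 0.835, and 0.246% of 13842 genes were as close to that list. For the other relations that passed, this share ran from 0.325% (Cftr and the biliary epithelium list) to 2.62% (Slc4a2 and the hepatocyte list).

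Cftr followed the biliary epithelium list (r = 0.917, exact permutation adjusted p = 0.0177, rho = 0.810, adjusted p = 0.0653, r = 0.839 without the 2 farthest samples), and so did Aqp1 (r = 0.849, exact permutation adjusted p = 0.0260, rho = 0.952, adjusted p = 0.0120, r = 0.767). That list was lowest, at 9.49, in ICR wild type gallbladder replicate 1. Its Krt8 probe set read 8.20 there, and the 2 other Krt8 probe sets 10.65 and 10.64. The part of Krt8 in the relations was not tested. Aqp8 followed the hepatocyte list (r = 0.866, exact permutation adjusted p = 0.0260; rho = 0.833, adjusted p = 0.0538; r = 0.690). Abcb4 followed both the erythroid list (r = 0.863, exact permutation adjusted p = 0.0177; rho = 0.857, adjusted p = 0.0538; r = 0.725) and the hepatocyte list (r = 0.858, exact permutation adjusted p = 0.0268; rho = 0.833, adjusted p = 0.0538), the second falling to r = 0.467 without the 2 farthest samples. Slc4a2 ran against the hepatocyte list (r = -0.811, exact permutation adjusted p = 0.0321; rho = -0.952, adjusted p = 0.0120; r = -0.825 without the 2 farthest samples). With the values as deposited r was -0.626 for Slc4a2 (exact permutation adjusted p = 0.213), and centring samples on their medians gave -0.106 (adjusted p = 0.849). Centring gave r = 0.879 to 0.978 for the other 6 relations. Abcc3 passed with none of the 3 lists. Leaving out each sample in turn, the Car2 relation passed in all 8 cases and each of the other 6 was lost in 2 to 4 of 8.

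**Figure D4:**
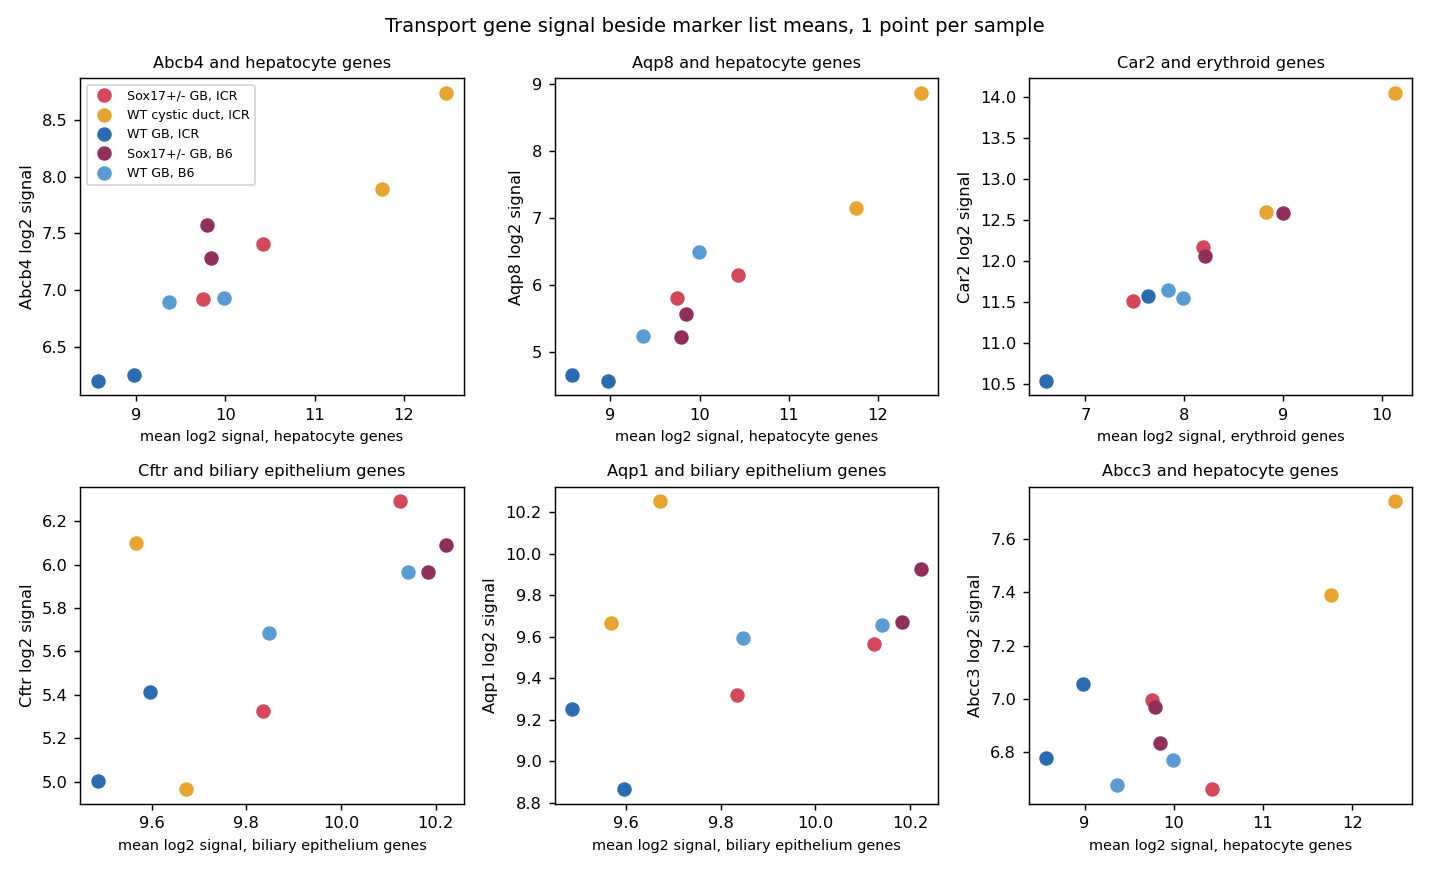
Log2 signal of a transport gene (y axis) beside the mean log2 signal of a marker list (x axis), 1 point per sample, coloured by group (GB, gallbladder; WT, wild type). The cystic duct samples lie at the high end of the hepatocyte and erythroid axes, and Car2 runs with the erythroid mean across all gallbladder samples.

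Across all 10 samples, the genes whose signal was most like that of each variable member were found among 13142 genes, as a description in which the cystic duct samples carry much of the range. For Aqp8 these were F11, a coagulation factor (r = 0.977), Hsd17b13 (0.974) and Nipal1 (0.971). For Car2 they were Asns, the asparagine synthetase (0.994), and the blood group proteins Icam4 (0.989) and Rhd (0.989). For Abcb4 they were Pim1, a protein kinase (0.973), Cd5l (0.970) and Marchf3 (0.969). For Aqp1 they were Ugt2b35 (0.951), Baz1a (0.950) and Ephx1, the microsomal epoxide hydrolase (0.939), for Abcc3 Rexo1 (0.952), Hibadh (0.951) and Atp6v0b (0.948), and for Cftr Brdt (0.969), Efcab14 (0.941) and Manba (0.937).

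The absorptive importers were dim. Slc10a2, which takes bile acids back up from the lumen, read 2.66 to 3.23 across the 10 samples, with 3.05 and 3.23 in cystic duct above all 8 gallbladders. Slc5a1, which takes up glucose with sodium, read 4.09 to 5.11 on its brighter probe set and 3.05 to 3.85 on the other. Slc9a3, which takes up sodium in exchange for protons, read 3.74 to 4.78 on its brighter probe set and 3.88 to 4.42 on the other. All 5 of these probe sets, and the second one of Cftr, lay under 4.81 on average, a brightness at which a lack of difference may be one of detection. In a limma fit without the filter none passed in any comparison. At an unadjusted p under 0.05 it listed Slc5a1 and Slc10a2 for cystic duct, Slc5a1 for genotype in ICR, Slc9a3 for genotype in B6, both of these for the difference between strains, and the second Cftr probe set for strain. The shares of all 34945 probe sets at that threshold were 25.1% for cystic duct, 11.1% for genotype in ICR, 4.88% in B6, 5.73% for the difference between strains and 28.1% for strain. The nearest was Slc5a1 in cystic duct against ICR wild type gallbladder (4.76 and 5.11 against 4.29 and 4.21, a log2 change of 0.68, SE 0.20, limma adjusted p = 0.0792), followed by Slc10a2 (0.41, SE 0.14, adjusted p = 0.119).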

How the data were processed

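Total RNA was hybridised to Affymetrix mouse arrays, 10 arrays in 5 groups of 2. The authors deposited 1 log2 signal for each probe set and array; how background and scaling were handled is not given in the sources used here. Of 45101 probe sets, 64 controls were left out; 34945 have 1 gene in the platform table, 932 several and 9160 none, and Entrez identifiers of 34741 of those with 1 gene were found in the reference table and 204 were not. No other column per sample was present (0).

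Samples were quantile normalized, and the 24461 probe sets whose mean reached the 30th percentile were tested. Using limma 3.58.1 under R 4.3.3, group means were fitted with a mean-variance trend on the 8 gallbladder samples for genotype and strain and on all 10 for cystic duct. The fits for genotype over both strains and for cystic duct were tried on simulated data, with independent noise as wide as in the gallbladder samples. That simulation held neither the wider spread of the cystic duct pair nor shared deviations between samples. Gallbladder samples with the same replicate number deviated together (r of deviations 0.390 in ICR and 0.306 in B6), while cystic duct and gallbladder did not (0.074 with wild type). The block was run as an alternative for every comparison, and these deviations give grounds for it in genotype and strain but not in cystic duct. Named genes are all members, transport genes that passed or came nearest, and the 3 genes most alike. Members, lists and rules were chosen with earlier results of these data known. Genotype was read from the label values, since the tags of stage and genotype are exchanged in the records. Relations and figures used Python 3.11.15, scipy 1.17.1, pandas 2.3.3 and matplotlib 3.10.9.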

Additional observations from a re-analysis of the deposited data

Results flagged for a closer look

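For 2 dim members every Sox17+/- sample lay on one side of the wild type samples in ICR and on the other side in B6. The share of all probe sets that did so was not determined, so the count is a description only. Among probe sets bright enough to test, Sox17+/- samples lay above for 15.9% and below for 21.8% in ICR, and above for 18.6% in B6. Slc5a1 (its brighter probe set) read 4.76 and 4.59 in ICR Sox17+/- gallbladder and 4.29 and 4.21 in ICR wild type gallbladder, and 4.09 and 4.30 in B6 Sox17+/- gallbladder and 4.41 and 4.36 in B6 wild type gallbladder. The difference of the genotype effects, B6 minus ICR, was -0.62 log2 units, and it did not pass in limma (unadjusted p = 0.0129, adjusted p = 0.817). Slc9a3 (its brighter probe set) read 4.38 and 4.40 in ICR Sox17+/- gallbladder and 4.54 and 4.62 in ICR wild type gallbladder, and 4.78 and 4.64 in B6 Sox17+/- gallbladder and 4.43 and 4.36 in B6 wild type gallbladder, a difference of 0.51 (unadjusted p = 0.0221, limma adjusted p = 0.817). Both probe sets lay below the brightness cut and come from the fit without it. On the second probe sets the samples did not separate in this way, and the difference was -0.17 for Slc5a1 and 0.13 for Slc9a3. Slc5a1 there stood at 0.36 in ICR and 0.19 in B6. Slc9a3 kept opposite signs at small values, -0.08 in ICR and 0.05 in B6. As deposited, the brighter Slc5a1 probe set overlapped in ICR, at 4.80 and 4.45 in Sox17+/- and 4.73 and 4.09 in wild type gallbladder.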

How the results depend on the processing

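Over all alternatives run, 0 members passed for genotype or for the difference between strains, while the number of all probe sets that passed for genotype over both strains ran from 2 (all 10 samples in the fit) to 1060 (without ICR wild type gallbladder replicate 2), against 33. Other settings that moved that count by over 1.5 times gave 67 as deposited, 55 without the filter, 77 with 1 probe set per gene and 13 with the replicate block; leaving out a sample, B6 Sox17+/- replicates 3 and 4 gave 5 and 18, B6 wild type replicates 3 and 4 gave 3 and 5, and ICR wild type replicate 1 gave 59; the block changed no member's call for genotype. For strain, 1 member passed; 0 did with values as deposited, 1 probe set per gene, all 10 samples or wild type only, and 2 did with centred samples, no trend, array weights or the replicate block, and leaving out each sample gave 0 to 2. For cystic duct, 4 passed; 2 did as deposited (Abcb4 and Aqp8), 0 with array weights, 0 with the compared groups only, 3 with the replicate block, and 2 to 5 leaving out each sample, the 2 arising without either B6 sample of either genotype and without either ICR wild type gallbladder. The causes were not tested. Signs turned for small values that had not passed: Abcc3 over both strains (-0.023 as deposited), Car2 (0.032 as deposited) and Slc4a2 (-0.025 centred) for the difference between strains, and for strain Slc4a2 (-0.064 as deposited, -0.053 in wild type only) and Abcc3 (0.019 centred). Leaving out each sample, the values that turned ran from -0.039 to 0.13 for Abcc3 over both strains, -0.26 to 0.077 for Abcc3 in ICR, -1.10 to 0.15 for Aqp8 in B6, -0.59 to 0.46 for Car2 and -0.88 to 0.086 for Cftr in the difference between strains, -0.039 to 0.046 for Slc4a2 and -0.14 to 0.023 for Abcc3 by strain, and -0.24 to 0.89 for Cftr in cystic duct. With 2 arrays a group, leaving out 1 assumes that the lone sample varies like the other groups.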
